A study of Homo sapiens with 12 samples.

Results

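The genes described here are IFNB1, which encodes interferon beta, and IFNL1, IFNL2 and IFNL3, which encode interferons lambda 1, 2 and 3. They are 4 of the 19836 protein-coding genes in the deposited expression table and were picked by gene name, after earlier results on these same libraries had shown their levels to be lower in A197-270 cells. Their values in all 4 groups, given below, were known when they were picked, so they are a description and carry no test. All 4 passed the filter used for the tests, a mean of at least 10 normalized counts over all libraries. The normalized count is the number of reads on a gene divided by 1 size factor per library.

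The study measured poly(A)-selected RNA from HEK293, an established human embryonic kidney cell line, in 12 libraries that form 4 groups of 3. In order, the groups are A197-270 with interferon gamma (IFN-gamma, replicates 10 to 12), A197-270 without it (replicates 4 to 6), vector with IFN-gamma (replicates 7 to 9) and vector without it (replicates 1 to 3). Cells were transduced on day 1 with A197-270 tandem plasmids or with a Flag vector, received IFN-gamma on day 2 where the group has it, and were harvested on day 4. All groups, the vector controls included, were therefore transduced and come from 1 line, and no group of untransduced cells was analysed here. The labels do not say what A197-270 encodes, nor whether the 3 replicates of a group were separate cultures, so the spread between them, and every p-value below, may be technical. The libraries held between 31417431 and 70746868 reads on genes. Reads of mitochondrially encoded genes made up 0.546% to 0.802% of the total in A197-270 libraries against 0.355% to 0.480% in vector libraries, and with IFN-gamma the ranges were 0.478% to 0.712% and 0.405% to 0.475%. The part of this in the results was not tested.

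Interferon beta is a type I interferon and the lambda interferons are type III. Cells make both when sensors such as RIG-I, MDA5 or cGAS detect foreign or misplaced nucleic acid: adaptor proteins then activate the kinases that phosphorylate IRF3 and IRF7, and these act with NF-kappaB on the interferon promoters. The secreted proteins bind different receptors, IFNAR1 with IFNAR2 for type I and IFNLR1 with IL10RB for type III. Both receptors signal through JAK1 and TYK2 to a transcription factor complex with STAT2 and IRF9 that switches on interferon-stimulated genes. IFN-gamma is the type II interferon, with its own receptor, and works in part through IRF1. The interferon beta enhancer is a textbook case of combinatorial control, in which ATF2 with JUN, several IRF proteins and NF-kappaB bind side by side.

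In the GENCODE 29 annotation of GRCh38, IFNB1 (ENSG00000171855.6) lies on chromosome 9 at 21077105 to 21077963 on the minus strand and is a single exon of 859 bases. The other 3 genes form a cluster on chromosome 19. IFNL3 (ENSG00000197110.8) lies at 39243553 to 39245129 on the minus strand, IFNL2 (ENSG00000183709.7) at 39268514 to 39270092 on the plus strand, and IFNL1 (ENSG00000182393.2) at 39296325 to 39298673 on the plus strand. IFNL1 has 5 exons totalling 857 bases, while the exons of IFNL2 total 737 bases and those of IFNL3 734 bases. No gene of the annotation overlaps any of the 4. Reads can be shared between the copies, however, since the IFNL2 and IFNL3 transcripts were 98.0% identical over 734 aligned bases. Of the 688 windows of 50 bases in IFNL2, 220 (32.0%) also occur letter for letter in IFNL3, and of the 638 windows of 100 bases, 33 do (5.17%). No source used here says how the authors assigned such reads, so the division between IFNL2 and IFNL3 is uncertain. IFNL1 shared no 50-base window with either and was 88.4% identical to IFNL2 over 475 aligned bases.

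The promoter sequences are shown because the 4 genes had like patterns across the groups. Each window is 300 bases long, ends 50 bases after the start that RefSeq annotates in GRCh38.p14, and is printed 5′ to 3′ on the gene's own strand. These RefSeq starts differ from the GENCODE 29 positions given above. Those of IFNB1 and IFNL1 lie inside the GENCODE 29 gene, and those printed for IFNL2 and IFNL3 lie upstream of it. The windows are chr9:21077893-21078192 for IFNB1 (minus strand), chr19:39296157-39296456 for IFNL1 (plus strand), chr19:39268146-39268445 for IFNL2 (plus strand) and chr19:39245201-39245500 for IFNL3 (minus strand). Capitals mark matches to 4 motifs that were searched on both strands: the core of interferon regulatory factor sites AANNGAAA, the interferon-stimulated response element (GAAA, any 2 bases, GAAA), the NF-kappaB core of the interferon beta enhancer GGAAATTC and its ATF element TGACATAG.
IFNB1: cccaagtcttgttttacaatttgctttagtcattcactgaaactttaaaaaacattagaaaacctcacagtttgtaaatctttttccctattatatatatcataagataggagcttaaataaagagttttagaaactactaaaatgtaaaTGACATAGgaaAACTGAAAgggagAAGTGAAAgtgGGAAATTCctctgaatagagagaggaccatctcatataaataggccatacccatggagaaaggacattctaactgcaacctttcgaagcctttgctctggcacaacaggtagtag
IFNL1: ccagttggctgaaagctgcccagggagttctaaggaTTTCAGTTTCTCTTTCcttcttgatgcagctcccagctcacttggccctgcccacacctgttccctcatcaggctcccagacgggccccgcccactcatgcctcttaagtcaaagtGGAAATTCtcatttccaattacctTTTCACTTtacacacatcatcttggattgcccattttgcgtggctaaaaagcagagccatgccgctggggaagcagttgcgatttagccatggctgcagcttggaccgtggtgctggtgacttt
IFNL2: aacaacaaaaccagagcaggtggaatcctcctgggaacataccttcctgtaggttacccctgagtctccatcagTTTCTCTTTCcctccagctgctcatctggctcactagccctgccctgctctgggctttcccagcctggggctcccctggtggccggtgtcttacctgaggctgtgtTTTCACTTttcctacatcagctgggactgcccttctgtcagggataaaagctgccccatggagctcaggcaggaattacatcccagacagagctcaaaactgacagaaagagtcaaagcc
IFNL3: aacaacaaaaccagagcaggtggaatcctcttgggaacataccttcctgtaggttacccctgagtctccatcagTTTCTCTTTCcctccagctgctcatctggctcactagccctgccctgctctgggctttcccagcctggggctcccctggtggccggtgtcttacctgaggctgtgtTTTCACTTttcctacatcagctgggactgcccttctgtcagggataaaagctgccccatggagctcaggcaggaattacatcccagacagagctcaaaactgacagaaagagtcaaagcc

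The IFNB1 window held the motifs side by side: TGACATAG at bases -100 to -93 from the start, the IRF core at -89 to -82 and at -76 to -69, and GGAAATTC at -65 to -58, which together are the core of the known enhancer. The IFNL1 window held the same GGAAATTC at -98 to -91 and an IRF core at -74 to -67, and farther up 2 overlapping copies of the response element on the minus strand, between -214 and -199, each of which contains an IRF core by construction. By the GENCODE 29 start of IFNL1, the IRF core at -74 to -67 lies within the gene. The IFNL2 window held an IRF core at -70 to -63 and 1 copy of the response element at -176 to -167, both on the minus strand, and no match to GGAAATTC. The IFNL3 window differed from that of IFNL2 by a single substitution, C31T, counted from 1 at the 5′ end with the IFNL2 base first, and held the same matches. A second annotated IFNL3 start, with the window chr19:39244957-39245256, held no match to any of the 4. Among all 35116 promoter windows of the same length, the IRF core was found in 22.8%, the response element in 3.57%, GGAAATTC in 1.26% and TGACATAG in 0.413%. All of these are matches of letters, not measured sites. GGAAATTC and TGACATAG were taken from the interferon beta enhancer itself, so their matches in IFNB1 were fixed in advance. Other forms of an NF-kappaB site were not searched.

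**Figure D1:**
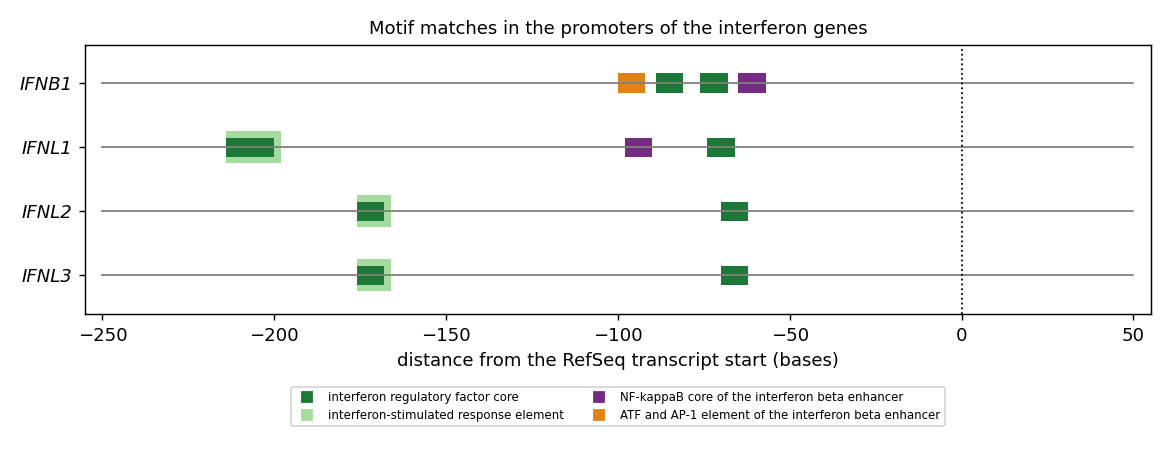
Positions of the motif matches in the promoter windows of the 4 genes, with the distance from the RefSeq start in bases on the horizontal axis and 1 line per gene. IFNB1 and IFNL1 hold an IRF core and GGAAATTC within 100 bases of the start, while IFNL2 and IFNL3 hold the same pair of IRF core positions.

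Per length of exon, IFNB1 had the highest level of the 4 transcripts in every group. In A197-270 cells it had 6.57, 5.83 and 6.30 normalized counts, from 7, 10 and 6 reads. In vector cells it had 561, 557 and 495 normalized counts, from 466, 558 and 842 reads. The A197-270 libraries thus lay far below the vector libraries with no overlap, and the group means were 6.24 ± 0.371 and 538 ± 37.1 (SD, n = 3 each). This is an 86.2-fold lower level in A197-270 cells, or -6.43 ± 0.0759 as a log2 ratio of means with its SE. That SE comes only from the spread between the 3 libraries of each group. With 23 reads in the A197-270 group, it may understate the counting error. Because these are bulk samples, fewer cells making the transcript and less transcript per cell cannot be told apart, here and below.

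With IFN-gamma, IFNB1 had 39.5, 83.3 and 37.5 normalized counts in A197-270 cells, from 33, 69 and 36 reads. In vector cells with IFN-gamma it had 951, 833 and 908 normalized counts, from 925, 665 and 744 reads. The A197-270 libraries were again all lower, with means of 53.4 ± 25.9 and 898 ± 59.7 (SD, n = 3 each), a 16.8-fold lower level (log2 -4.07 ± 0.41, SE). Replicate 11 was the highest of the 3 A197-270 libraries with IFN-gamma, and the log2 ratio was -4.54 without it.

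IFNL1, the lambda gene with the most reads, had 0 reads in all 3 A197-270 libraries. It had 137, 133 and 116 normalized counts in vector cells, from 114, 133 and 197 reads, a mean of 129 ± 11.3 (SD, n = 3). Set against a floor of 3 reads over the A197-270 group, the level was at least 160.0-fold lower in A197-270 cells (log2 -7.32). The bound depends on how deeply the A197-270 cells were sequenced, and without A197-270 replicate 5, the deepest library, the bound was -6.43 in log2. With IFN-gamma, IFNL1 had 8.38, 12.1 and 5.21 normalized counts in A197-270 cells, from 7, 10 and 5 reads, and 364, 279 and 271 in vector cells, from 354, 223 and 222 reads. The groups did not overlap, and the means of 8.55 ± 3.43 and 305 ± 51.5 (SD, n = 3 each) gave a 35.6-fold lower level (log2 -5.16 ± 0.36, SE).

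IFNL2 and IFNL3 followed the same order at lower levels. IFNL2 had 0 reads in all A197-270 libraries, and 37.3, 22.0 and 18.2 normalized counts in vector libraries, from 31, 22 and 31 reads. IFNL3 also had 0 reads in all A197-270 libraries, and 30.1, 23.0 and 22.3 normalized counts in vector libraries, from 25, 23 and 38 reads. With the same floor, the levels in A197-270 cells were at least 32.1-fold lower for IFNL2 and at least 31.3-fold lower for IFNL3. Without A197-270 replicate 5 the log2 bounds were -4.12 for IFNL2 and -4.08 for IFNL3, against -5.01 and -4.97 with all libraries.

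With IFN-gamma, only single A197-270 libraries held reads of these copies. IFNL2 had 2 reads in A197-270 replicate 10 and 0 in the other two, against 75.1, 71.4 and 79.4 normalized counts in vector cells, from 73, 57 and 65 reads. IFNL3 had 3 reads in A197-270 replicate 12 and 0 in the other two, against 45.3, 30.1 and 34.2 normalized counts in vector cells, from 44, 24 and 28 reads. The A197-270 libraries were all lower for both genes. For these 2 genes the ratio was taken from the reads pooled over each group and divided by the summed size factors, not from group means. The levels were 98.8-fold lower for IFNL2, with a 95% counting interval of 27.0 to 822, and 32.4-fold lower for IFNL3, with an interval of 10.8 to 160.0. Without molecular identifiers, these intervals and the floors reflect counting error alone. The log2 ratio of IFNL2 was -6.63 with all libraries and -5.97 without A197-270 replicate 12. Each ratio rests on the reads of 1 library, and there is no ratio for IFNL2 without A197-270 replicate 10 or for IFNL3 without A197-270 replicate 12.

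**Figure D2:**
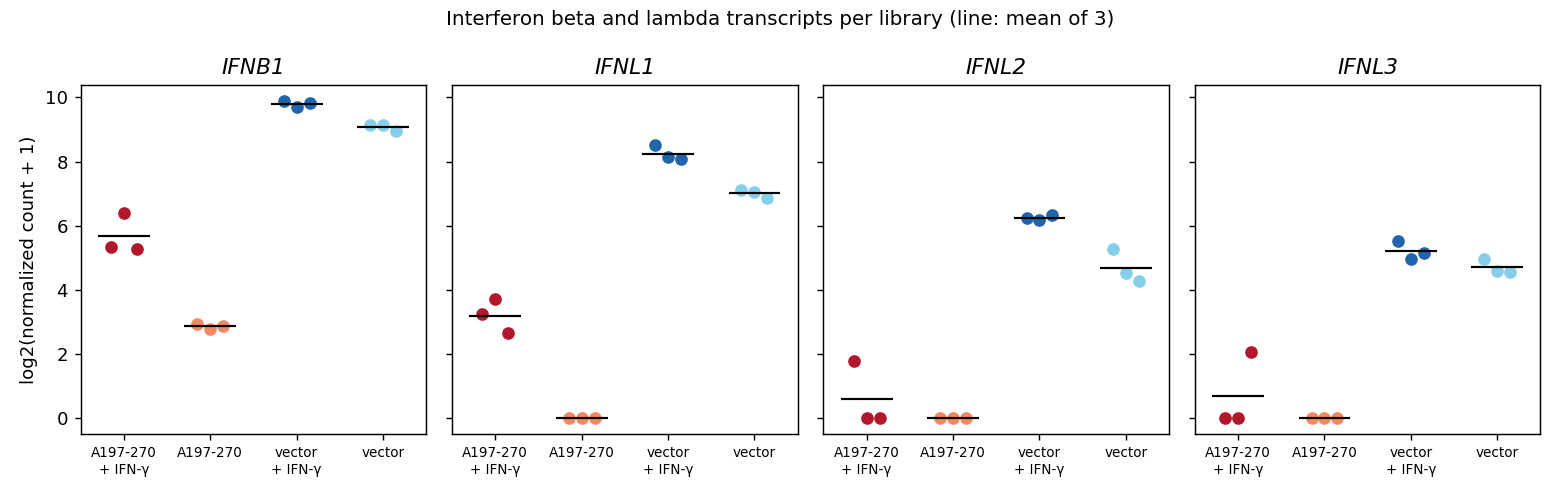
Log2 of the normalized count + 1 of the 4 genes in each of the 12 libraries, with 1 panel per gene and the groups in the order A197-270 + IFN-gamma, A197-270, vector + IFN-gamma and vector; points are libraries and lines are the means of the 3 plotted values. Every A197-270 library lies below every vector library of the same treatment, and the 3 lambda genes lie at 0 in A197-270 cells without IFN-gamma.

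Thus 4 of 4 genes were lower in every A197-270 library than in every vector library, both without and with IFN-gamma. Over all tested genes, 20.1% were lower without overlap when IFN-gamma was absent and 22.9% when it was present. Since the genes were picked for these differences, the count is only their description.

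IFN-gamma itself went with higher levels. In vector cells, IFNB1 averaged 898 normalized counts with IFN-gamma and 538 without, a 1.67-fold higher level (log2 0.74 ± 0.08, SE). The ratio was 2.37-fold for IFNL1 (log2 1.24 ± 0.16) and 2.91-fold for IFNL2 (log2 1.54 ± 0.33). For these 3 genes every library with IFN-gamma lay above every library without it, which was the case for 16.3% of all tested genes. IFNL3 was the exception, since its lowest library with IFN-gamma and its highest without both read 30.1 to 3 digits and the groups overlapped; its ratio was 1.45-fold (log2 0.54 ± 0.23). In A197-270 cells, IFNB1 averaged 53.4 normalized counts with IFN-gamma and 6.24 without, an 8.57-fold higher level (log2 3.10 ± 0.41). With 1 library left out, that log2 ratio ran from 2.63 to 3.30, and the level without IFN-gamma rests on 23 reads. IFNL1 had 22 reads in the 3 A197-270 libraries with IFN-gamma and 0 without, which makes it at least 10.6-fold higher. Without A197-270 replicate 5 that log2 bound was 2.52, against 3.41 with all libraries. Both IFNB1 and IFNL1 were higher in all 3 libraries, as were 12.1% of all tested genes, while the 2 and 3 reads of IFNL2 and IFNL3 were too few for a fold. The difference between the IFN-gamma ratios of the 2 kinds of cells was not tested for these genes, which were chosen with those values known. Even with IFN-gamma, IFNB1 in the highest A197-270 library, at 83.3 normalized counts, lay below its lowest value in vector cells without IFN-gamma, 495.

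**Figure D3:**
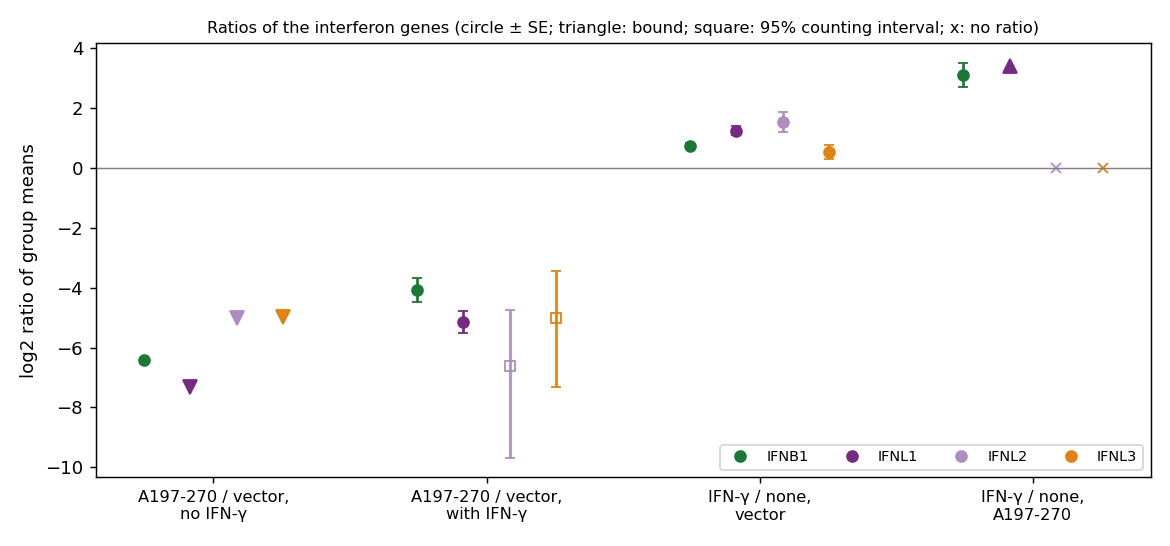
Log2 ratios of group means for the 4 genes in the construct comparisons and the IFN-gamma comparisons. Open squares are instead ratios of pooled reads over summed size factors. Circles carry standard errors, triangles are bounds where a group holds 0 reads, open squares carry 95% counting intervals where a group holds 2 or 3 reads, and crosses mark the 2 cases with no ratio; the construct values run from -4.07 for IFNB1 with IFN-gamma to the bound of -7.32 for IFNL1 without it, and the IFN-gamma ratios in vector cells run from 0.54 to 1.54.

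Levels of the 4 genes were compared per kilobase of exon. In vector cells without IFN-gamma, IFNB1 had 626 ± 43.2 normalized counts per kb and IFNL1 had 150.1 ± 13.2, while IFNL2 had 35.1 ± 13.7 and IFNL3 had 34.2 ± 5.87 (SD, n = 3 each). IFNL2 and IFNL3 did not differ beyond their spread there, whereas the other steps of this order did. With IFN-gamma the vector levels per kb were 1045 ± 69.5 for IFNB1, 356 ± 60.1 for IFNL1, 102 ± 5.38 for IFNL2 and 49.7 ± 10.7 for IFNL3, so IFNL2 and IFNL3 were apart by more than their spread. In A197-270 cells with IFN-gamma, IFNB1 had 62.2 ± 30.1 and IFNL1 9.98 ± 4.00 normalized counts per kb.

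The balance between the lambda genes and IFNB1 is given as the share of reads. Lambda reads were 27 of the 165 reads on the 4 genes in A197-270 cells with IFN-gamma (16.4%, exact 95% interval 11.1% to 22.9%), against 1090 of 3424 in vector cells with IFN-gamma (31.8%, 30.3% to 33.4%). In the single libraries the share was 12.7% to 21.4% in the A197-270 group and 29.7% to 33.7% in the vector group, without overlap. In A197-270 cells without IFN-gamma it was 0 of 23 reads, where the 3 reads that a count of 0 allows make up 13.0% and the exact upper limit is 14.8%, against 614 of 2480 in vector cells (24.8%, 23.1% to 26.5%), where single libraries held 24.0% to 26.7%. The vector libraries with IFN-gamma thus all lay above those without it. Per kb, IFNL1 stood at 0.139 to 0.213 of IFNB1 in A197-270 libraries with IFN-gamma, at 0.299 to 0.384 in vector libraries that received it and at 0.235 to 0.245 in those that did not. No test was made on these shares, which come from the same values as the choice of genes.

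The lambda reads were then divided among the 3 lambda genes, again with intervals that cover counting error alone. The share of IFNL1 was 81.5% in A197-270 cells with IFN-gamma (22 of 27 reads, exact 95% interval 61.9% to 93.7%), 73.3% in vector cells with IFN-gamma (70.6% to 75.9%) and 72.3% in vector cells without it (68.6% to 75.8%). In the single libraries it was 62.5% to 100% in A197-270 cells with IFN-gamma, on 8 to 10 lambda reads each, 70.5% to 75.2% in vector cells with IFN-gamma and 67.1% to 74.7% in vector cells without it. Of the reads on IFNL2 and IFNL3 together, IFNL2 took 67.0% in vector cells with IFN-gamma (61.3% to 72.4%) and 49.4% in vector cells without it (41.7% to 57.2%). The single libraries ranged over 62.4% to 70.4% with IFN-gamma and 44.9% to 55.4% without. This division is the value that read sharing between the copies touches most.

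**Figure D4:**
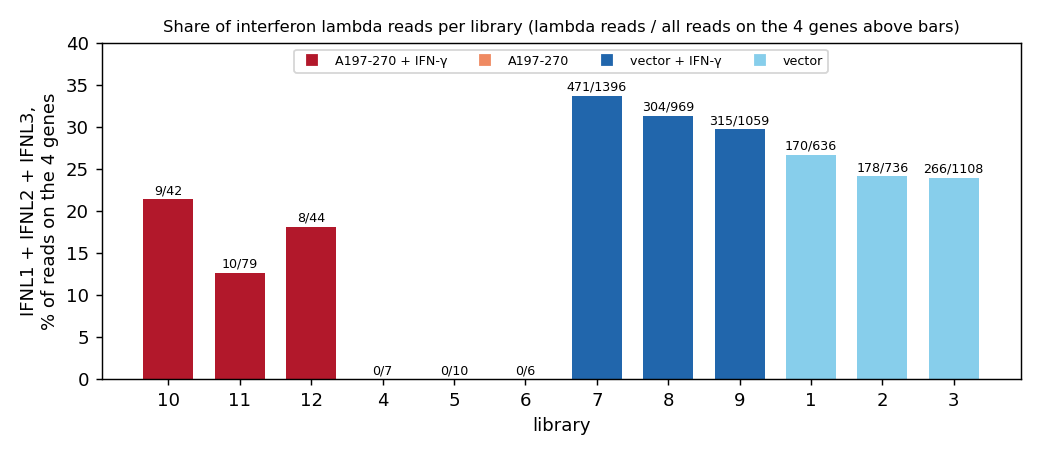
Share of the reads on the 4 genes that fell on the lambda genes, in percent, as 1 bar per library, coloured by group, with the lambda reads and all reads on the 4 genes above each bar. Shares run from 12.7% to 21.4% in A197-270 libraries with IFN-gamma, lie at 0 in those without it, and run from 29.7% to 33.7% with IFN-gamma and from 24.0% to 26.7% without it in vector libraries.

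Across the 12 libraries, IFNB1 and IFNL1 moved almost in step (Pearson r = 0.998 on log2 of the value + 1), and the other pairs of the 4 genes had r of 0.929 to 0.944. These points share their libraries and fall into groups that are far apart, so r mostly restates the group order. By the same measure, the tested gene most like IFNB1 was CCL5 (r = 0.988), a chemokine that attracts T cells, followed by DUSP14, TCF19, H1F0 and C3orf62 with r down to 0.981. For IFNL1 the nearest were H1F0 (r = 0.989), a linker histone, DUSP14, TCF19, CCL5 and DHRS2. IFNL2 was most like DTL (r = 0.984) and IFNL3 most like THAP9 (r = 0.976). CCL5 averaged 147 ± 44.3 normalized counts in A197-270 cells with IFN-gamma and 41.1 ± 0.865 without it, against 2599 ± 123 in vector cells with IFN-gamma and 2562 ± 196 without it (SD, n = 3 each). The order of its groups was that of IFNB1, but in vector cells its 2 group means lay within 1 SD of each other.

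The other interferon genes stayed at the limit of detection. Of the 18 listed, 17 were found in the table, none reached the mean of 10 needed for a test, and 8 had 0 reads in all libraries. IFNL4 was not analysed here. The most reads on any of them were the 15 of IFNA2 over all 12 libraries. The 13 interferon alpha genes together had 3 reads in A197-270 cells with IFN-gamma and 2 without it, against 30 in vector cells with IFN-gamma and 11 without it. Interferon alpha copies are also near-identical, so reads of a single one are uncertain.

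The genes beside the interferon loci were looked up by position among the protein-coding genes of the deposited table. Other annotated genes, and the 4 interferon genes described here, are not in the counts below. Of the 10 genes within 200 kb of IFNB1, most of them interferon genes, 6 had 0 reads in all libraries and FOCAD alone could be tested. FOCAD, 81150 bases away, was higher in A197-270 cells (log2 0.52, adjusted p = 4.37e-08). Around the lambda cluster, 14 genes lie within 200 kb and 10 were tested. Without IFN-gamma, the ribosomal protein gene RPS16 rose in A197-270 cells (log2 0.17, adjusted p = 0.0288) and none of the 10 fell. RPS16 was not called with equal library totals (adjusted p = 0.0571) or without replicate 1, 2, 4 or 6 (adjusted p = 0.0775 to 0.116). ZFP36, which encodes an RNA-binding protein that destabilizes cytokine transcripts, had a log2 difference of -1.68 and did not pass (adjusted p = 0.0707), though it was called without replicate 4 (log2 -0.49), 5 (log2 -2.24) or 6 (log2 -2.31). Its log2 difference was -1.02 with edgeR or DESeq2. With IFN-gamma, RPS16 rose again (log2 0.32, adjusted p = 0.000397), and LRFN1, 7895 bases from IFNL1, fell (log2 -0.40, adjusted p = 0.0322). LRFN1 was not called without replicate 7, 8 or 11, with adjusted p of 0.133, 0.0506 and 0.122 in that order. These and all further p-values come from limma's moderated test on log2 of the normalized count + 1, adjusted by the Benjamini-Hochberg method over 14049 genes, with a threshold of 0.05.

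The genes that act before, beside and after the interferons were then counted in 6 lists, whose log2 values are fold changes on the log2(value + 1) scale. Without IFN-gamma, A197-270 cells had 25.1% of all tested genes called, 12.5% higher and 12.6% lower, and in this and the other comparisons the median log2 over all genes lay between -0.01 and 0.01. The type I and III interferon-stimulated genes were lower as a block. All 24 of 24 fell in A197-270 cells, with a median of -5.17. OAS1, which makes the second messenger that activates RNase L, had 5.31 ± 5.66 normalized counts in A197-270 cells against 1367 ± 109 in vector cells (log2 -8.38, adjusted p = 1.22e-07; log2 -9.16 without replicate 4 and -7.36 without replicate 6). RSAD2, the antiviral enzyme viperin, had 10.1 ± 6.21 against 2036 ± 438 (log2 -7.71, adjusted p = 8.92e-10; log2 -7.11 without replicate 6). XAF1, a pro-apoptotic protein, was at 0 in every A197-270 library against 159 ± 15.8 normalized counts in vector cells, and so at least 197-fold lower.

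Of the 11 tested cytokine and chemokine genes that are induced beside interferon beta, 8 fell and none rose, with a median of -1.29. CCL5 was among them (log2 -5.93, adjusted p = 5.99e-13). CXCL10, a chemokine for activated T cells, had 5.84 ± 5.35 normalized counts in A197-270 cells against 499 ± 20.3 in vector cells (log2 -6.79, adjusted p = 1.79e-06; log2 -5.70 without replicate 4 and -7.47 without replicate 6). CXCL11, which shares its receptor, had 0.583 ± 1.01 against 60.7 ± 12.1 (log2 -5.44, adjusted p = 4.07e-07; log2 -6.07 to -6.27 with edgeR, DESeq2 or a pseudocount of 0.5).

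Of the 15 tested nucleic acid sensors and adaptors, 7 fell and 1 rose, with a median of -0.17. Those that fell included the RNA sensors and a DNA sensor that are themselves interferon-stimulated. DDX58, which encodes RIG-I, had 323 ± 32.0 normalized counts in A197-270 cells against 5679 ± 902 in vector cells (log2 -4.13, adjusted p = 7.19e-13). IFIH1, which encodes MDA5, had 219 ± 26.0 against 2971 ± 98.2 (log2 -3.76, adjusted p = 9.21e-14). IFI16, a sensor of DNA, was listed at 0 in every A197-270 library, which is at least 23.5-fold below vector cells. The gene that rose was MAVS, the mitochondrial adaptor of both RNA sensors, with 4223 ± 112 against 3068 ± 92.9 (log2 0.46, adjusted p = 0.000334). MB21D1, which encodes the DNA sensor cGAS, had 40 reads over all 12 libraries and was not tested.

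Of the 12 interferon receptor and JAK-STAT genes, 5 fell and none rose, with a median of -0.14. STAT2 and IRF9 were among those that fell. STAT2 had 2000.5 ± 80.0 normalized counts in A197-270 cells against 4484 ± 65.6 in vector cells (log2 -1.16, adjusted p = 1.87e-11), and IRF9 had 303 ± 37.9 against 1672 ± 71.0 (log2 -2.47, adjusted p = 5.44e-09). The lambda receptor chains did not pass the test: IFNLR1 had 844 ± 46.1 against 949 ± 20.5 (log2 -0.17, adjusted p = 0.0616) and IL10RB 1267 ± 30.7 against 1376 ± 40.2 (log2 -0.12, adjusted p = 0.127). IFNLR1 passed without replicate 6 (adjusted p = 0.043) or 12 (adjusted p = 0.0408). Scaled to equal library totals, both lambda receptor genes passed (adjusted p = 0.0143 for IFNLR1 and 0.048 for IL10RB) and 8 of the 12 fell in place of 5.

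Of the 12 tested transcription factors of interferon genes, 3 fell and 2 rose, with a median of -0.06. IRF7, the interferon-inducible activator, had 32.0 ± 19.4 normalized counts in A197-270 cells against 259.8 ± 21.5 in vector cells (log2 -3.18, adjusted p = 8.32e-06), and IRF1 fell as well (log2 -0.67, adjusted p = 2.39e-06). IRF3, the constitutive activator, did not pass the test, with 1511 ± 43.4 against 1566 ± 11.7 (log2 -0.05, adjusted p = 0.455). The 2 genes that rose, HMGA1 and JUN, did so by at most 0.19, and none rose with equal library totals, with only the groups compared in the fit, or without replicate 1, 2, 4 or 6. Without the filter on low values, or without replicate 5, 9, 10, 11 or 12, 1 of them rose. Of the 14 negative regulators of interferon induction or response, 5 fell and 1 rose, with a median of -0.13. Those that fell included USP18, which blocks the interferon receptor (log2 -0.96, adjusted p = 6.05e-08), and 2 feedback inhibitors of NF-kappaB, NFKBIA (log2 -0.78, adjusted p = 2.22e-05) and TNFAIP3 (log2 -0.76, adjusted p = 5.54e-05).

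With IFN-gamma present in both groups, 34.8% of all tested genes were called in A197-270 cells against vector cells, 18.6% higher and 16.2% lower. Of the 24 interferon-stimulated genes, 17 fell, 1 rose and 6 did not pass, with a median of -0.89. IFI27 had 1343 ± 339 normalized counts in A197-270 cells against 5611 ± 247 in vector cells, both with IFN-gamma (log2 -2.09, adjusted p = 4.11e-07). ISG15, the ubiquitin-like modifier, had 1539 ± 164 against 4476 ± 137 (log2 -1.54, adjusted p = 1.71e-06), while IFIT3, an antiviral protein, had 26358 ± 1911 against 29039 ± 3022 and did not pass (log2 -0.14, adjusted p = 0.543). The gene that rose was IFIT5, named for being the only one (log2 0.25, adjusted p = 0.0424). It was not called with edgeR, with equal library totals, without the filter, or without replicate 2, 5, 6, 8, 9, 10 or 11.

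The RNA sensor gene DDX58 did not pass the test in these cells, with 4416 ± 309 normalized counts in A197-270 cells against 5072 ± 541 in vector cells (log2 -0.20, adjusted p = 0.168). IFIH1 fell (log2 -0.58, adjusted p = 8.08e-05). Of the 15 sensors and adaptors, 5 fell and 2 rose, with a median of -0.18, and 3 fell without replicate 11 of the A197-270 cells. Of the 12 receptor and JAK-STAT genes, 6 fell and 3 rose, with a median of -0.12. None of the 12 rose with equal library totals, without replicate 9 or without replicate 11, and 3 fell without replicate 11. The lambda receptor gene IFNLR1 fell, with 963 ± 63.3 against 1119 ± 47.6 (log2 -0.22, adjusted p = 0.015), but was not called without replicate 9 (adjusted p = 0.0637) or 12 (adjusted p = 0.0625). IRF3 fell too, with 1540.2 ± 81.2 against 1763 ± 15.8 (log2 -0.20, adjusted p = 0.0049). IRF7 had 276 ± 25.5 against 406 ± 19.7 and did not pass (log2 -0.56, adjusted p = 0.196), but it passed with only these groups in the fit (adjusted p = 0.00239) or without replicate 5 (adjusted p = 0.0138). Of the 12 transcription factors, 5 fell and 3 rose, with a median of -0.14. Without replicate 9, 11 or 12, 3 of them fell, and with equal library totals none rose. Of the 14 negative regulators, 5 fell and 1 rose, with a median of -0.13, and none rose with equal library totals.

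Of the 11 cytokine and chemokine genes, 5 fell with IFN-gamma present, 6 did not pass and none rose, with a median of -0.58. CCL5 had 147 ± 44.3 normalized counts in A197-270 cells against 2599 ± 123 in vector cells, both with IFN-gamma (log2 -4.18, adjusted p = 3.70e-10). CXCL10 had 719 ± 74.1 against 3582 ± 303 (log2 -2.32, adjusted p = 0.008) and CXCL11 32.7 ± 13.6 against 350.0 ± 67.4 (log2 -3.45, adjusted p = 3.48e-05). Set beside these, the log2 ratios of means were -4.07 for IFNB1 and -5.16 for IFNL1.

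**Figure D5:**
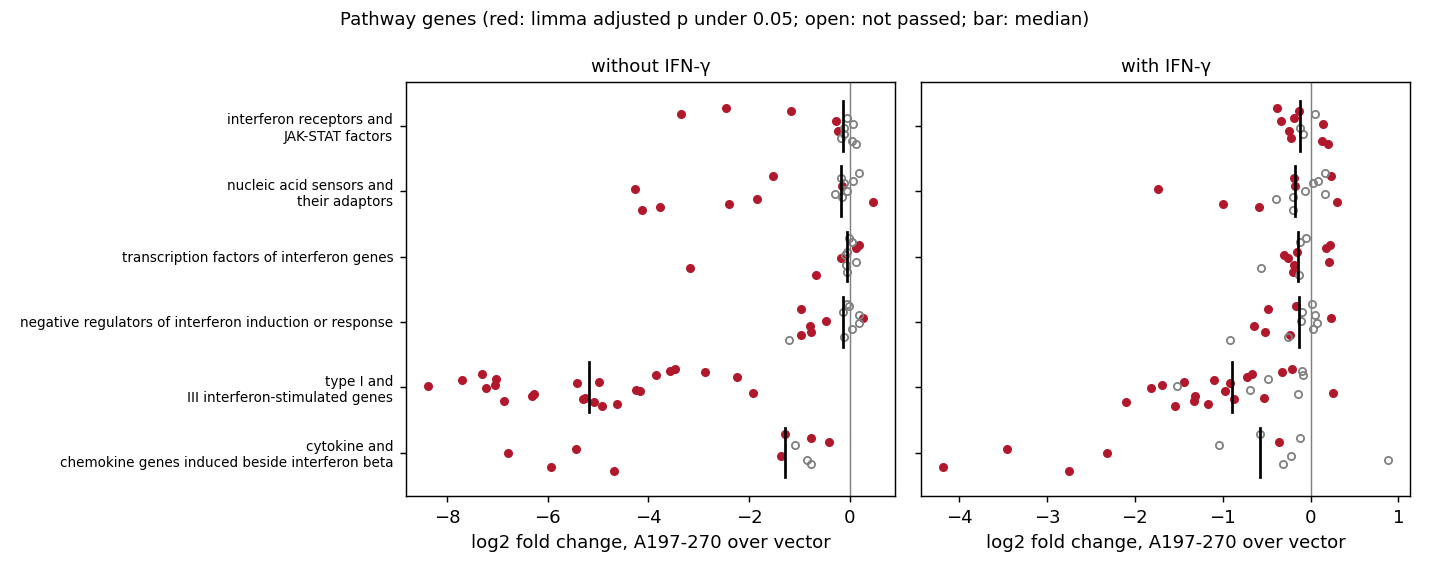
Log2 fold changes of the tested genes of each list for A197-270 against vector, in 1 panel with IFN-gamma and 1 without it, each with its own axis range; points are genes, red where the adjusted p passed 0.05 and open where it did not, and bars are medians. The interferon-stimulated genes have a median of -0.89 with IFN-gamma and -5.17 without it.

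In vector cells, IFN-gamma changed 17.1% of all tested genes, 7.32% higher and 9.79% lower. Of the 24 interferon-stimulated genes, 11 rose and 1, IFIT1, fell, with a median of 0.73. None fell without replicate 1 or replicate 9, 2 fell without replicate 12 and 3 with only the groups compared in the fit. IRF1, a direct target of IFN-gamma signalling, had 4573 ± 202 normalized counts with IFN-gamma against 391 ± 17.2 without (log2 3.55, adjusted p = 2.10e-14), and CXCL10 had 3582 ± 303 against 499 ± 20.3 (log2 2.84, adjusted p = 0.00524). CCL5 had 2599 ± 123 against 2562 ± 196 and did not pass (log2 0.02, adjusted p = 0.943), a difference that was -0.04 without replicate 3 and -0.01 without replicate 9. In the other lists, 4 of 15 sensors and adaptors, 5 of 11 cytokine and chemokine genes, 5 of 12 receptor and JAK-STAT genes and 4 of 14 negative regulators rose, and none fell. Without replicate 9 the receptor and JAK-STAT count was 3, without replicate 3 a cytokine gene fell as well (1 gene), and the count of negative regulators was 7 with DESeq2, equal library totals or only these groups in the fit. Of the 12 transcription factors 5 rose and 2 fell. Without replicate 1, 2 or 9, 3 of them rose, and 1 fell with equal library totals, with only these groups in the fit or without replicate 3, 7 or 8.

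In A197-270 cells, IFN-gamma changed 7.19% of all tested genes, 4.19% higher and 3% lower. All 24 of 24 interferon-stimulated genes rose, with a median of 4.57. Of the 15 sensors and adaptors 7 rose, with a median of 0.39, and of the 11 cytokine and chemokine genes 7 rose, with a median of 1.77. No sensor fell with all libraries, and 1 fell without A197-270 replicate 12. Of the 12 receptor and JAK-STAT genes 5 rose and none fell. Of the 12 transcription factors 3 rose and 1 fell, or 2 fell without replicate 3. Of the 14 negative regulators 7 rose and none fell, or 4 rose without replicate 4 or 11. DDX58 had 4416 ± 309 normalized counts with IFN-gamma against 323 ± 32.0 without (log2 3.77, adjusted p = 1.25e-12), and IRF1 had 4188 ± 146 against 245 ± 16.5 (log2 4.09, adjusted p = 9.41e-16). CCL5 rose too (log2 1.77, adjusted p = 8.61e-07), to the 147 ± 44.3 normalized counts given above. The difference between the IFN-gamma responses of A197-270 and vector cells, tested as an interaction, was called for 0.897% of all tested genes, with 0.819% higher and 0.0783% lower in A197-270 cells. Of the 24 interferon-stimulated genes, 23 were among the higher ones, from levels that were lower in A197-270 cells without IFN-gamma. The construct and IFN-gamma comparisons share libraries, so their values are set side by side and no overlap between them is given.

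The identity of the cells was checked with marker genes. All 7 HEK293 markers had reads in every group. Their summed level was 66805 to 69392 normalized counts in A197-270 cells with IFN-gamma and 73119 to 75451 in those without it. In vector cells it was 50530.3 to 54166 with IFN-gamma and 60184 to 61850 without it. Most of this sum was VIM, with 42271 ± 308 in A197-270 cells and 33869 ± 1330 in vector cells. The markers did not move together in A197-270 against vector cells without IFN-gamma. NEFL, NEFM, CDH2 and VIM rose (log2 0.16 to 0.55), PAX2 fell (log2 -0.42, adjusted p = 0.0483), and KRT8 and KRT18 did not pass. Plasmacytoid dendritic cells are the professional interferon producers of blood. Of their 4 markers in the table, 2 were at 0 reads in both A197-270 groups, 3 in vector cells with IFN-gamma and all 4 in vector cells, with summed levels of at most 10.4 normalized counts in any library. The lymphocyte markers summed to at most 68.2, and PTPRC had 2 reads and CD3E 3 reads over all libraries. The 7 macrophage and monocyte markers summed to 292 to 453 in A197-270 cells with IFN-gamma and 75.1 to 96.7 without it, against 674 to 1038 in vector cells with IFN-gamma and 301 to 353 without it. Most of that sum was CD68, a lysosomal protein made in many cell types, at 46.7 ± 7.63 normalized counts in A197-270 cells against 296 ± 27.3 in vector cells (log2 -2.65, adjusted p = 2.20e-07), whereas TYROBP had 5 reads over all libraries. The other tested markers of this list did not pass in A197-270 against vector cells and had differences above 0: log2 1.72, adjusted p = 0.26 for CD14 and log2 1.05, adjusted p = 0.433 for CSF1R, and with IFN-gamma log2 1.13, adjusted p = 0.433 and log2 1.32, adjusted p = 0.276. The part of these cells in the results was not tested.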

How the data were processed

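The members and the gene lists were chosen with earlier results of these data known. The authors deposited 1 table of normalized counts, which is a signal scaled by a size factor for each library. Per the submitters' processing notes the tools were StringTie 1.3.3b, HISAT2 2.1.0 and DESeq2 1.22.1, on the build hg38; their roles are not given. No source used here gives the annotation release or any use of strand. In every library 100% of the values were whole multiples of the value of 1 read, within 0.001 of a read, so the reads could be recovered, and they gave totals of 31417431 to 70746868 per library.

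Members were described by values, reads, ratios of group means and exact (Clopper-Pearson) intervals at 95%, with a floor of 3 reads over a group at 0. The lists were tested on log2(value + 1) in R 4.3.3 by limma 3.58.1 with trend, in a single fit of the 4 group means over all 12 libraries. Genes below a mean of 10 were left out, which kept 14049, and the rest held 0.0179% of the reads. P-values are two-sided, adjusted by the Benjamini-Hochberg method with a threshold of 0.05, and the log2(value + 1) scale understates the change of low genes. The scripts were tested on simulated data. The alternatives were edgeR 4.0.16 (quasi-likelihood) and DESeq2 1.42.0 on the recovered reads, equal library totals, TMM factors for the member ratios, a pseudocount of 0.5, no filter, only the groups compared in the fit, and each library left out in turn.

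The named genes are the 4 interferon genes, up to 4 called genes with the largest change per list and comparison, the 2 highest where none was called, the 5 genes most correlated with each member, and the genes within 200 kb of one. Other genes named were chosen after their values were seen. Gene positions come from GENCODE 29 and promoters from RefSeq on GRCh38.p14. A total of 1 listed gene is not reported here; the counts over its list include it.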

Additional observations from a re-analysis of the deposited data

Results flagged for a closer look

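The IFN-gamma response of A197-270 cells was compared with that of vector cells by an interaction term in limma, which tests the difference itself, with Benjamini-Hochberg adjustment over all tested genes. Of these genes, 0.897% were called, 0.819% with a larger log2 response in A197-270 cells and 0.0783% with a smaller one. The 4 interferon genes get no such test. Of the 24 interferon-stimulated genes, 23 had a larger response in A197-270 cells, with a median difference of 4.10. This response is a fold over the level without IFN-gamma, which was lower in A197-270 cells for all 24 (median log2 -5.17). With IFN-gamma in both groups, 17 were still lower in A197-270 cells, 1 was higher and 6 did not pass (median log2 -0.89). OAS1 then had 1424 ± 286 normalized counts in A197-270 cells against 4029 ± 300 in vector cells. The differences in log2 response were 6.86 for OAS1 (adjusted p = 0.00016), 6.61 for RSAD2 (adjusted p = 7.76e-07), 6.55 for CMPK2 (adjusted p = 0.000283) and 6.65 for XAF1 (adjusted p = 1.31e-11). XAF1, and IFI16 below, had 0 reads in A197-270 cells without IFN-gamma, so their fitted differences depend on the pseudocount and were 7.64 for XAF1 and 3.49 for IFI16 with a pseudocount of 0.5. CMPK2 averaged 2.50 ± 4.33 normalized counts in A197-270 cells without IFN-gamma, and its difference was 7.25 with that pseudocount and 7.58 without replicate 4. The difference was 7.64 without replicate 4 and 5.84 without replicate 6 for OAS1, and 6.0 without replicate 6 for RSAD2.

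Among the sensors the differences were 3.93 for DDX58 (adjusted p = 2.21e-10), 3.18 for IFIH1 (adjusted p = 1.21e-10), 2.53 for IFI16 (adjusted p = 0.00516) and 1.76 for TRIM25, a ubiquitin ligase of the RIG-I pathway (adjusted p = 9.49e-10). Among the signalling genes they were 2.08 for IRF9 (adjusted p = 5.85e-06) and 1.04 for STAT2 (adjusted p = 1.33e-08). Among the transcription factors they were 2.62 for IRF7 (adjusted p = 0.00696) and 0.54 for IRF1 (adjusted p = 0.00278).

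Of the negative regulators, USP18 had a difference of 0.72 (adjusted p = 0.000219) and TRIM38 one of 0.48 (adjusted p = 0.0186). TRIM38 was not called without replicate 2, 7, 9 or 11. Among the chemokines the differences were 1.75 for CCL5 (adjusted p = 0.000147), 4.47 for CXCL10 (adjusted p = 0.0145) and 1.14 for CXCL8 (adjusted p = 0.0207). The difference of CXCL10 was 3.39 without replicate 4 and 5.15 without replicate 6, and it was not called with a pseudocount of 0.5. CXCL8 was not called without replicate 1, 2, 4, 6, 8, 9, 10 or 12.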

How the results depend on the processing

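No paired analysis was possible because the labels number the libraries 1 to 12 and no number is shared between groups. The member ratios kept their direction under every alternative that gave a value: none of the 28 values with equal library totals or TMM factors moved by more than the spread between replicates, while with 1 library left out 74 values did not and 8 did. Leaving out 1 library gave log2 bounds of -7.39 to -6.43 for IFNL1, -5.20 to -4.12 for IFNL2 and -5.04 to -4.08 for IFNL3 in A197-270 against vector cells without IFN-gamma, and of 2.52 to 3.67 for IFNL1 with IFN-gamma against none in A197-270 cells. In these bounds the floor of 3 reads is spread over fewer reads when an A197-270 library is left out. IFNL2 and IFNL3 with IFN-gamma gave no ratio without replicate 10 and replicate 12, in that order, which left 0 reads.

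With 1 library left out, the called genes numbered 2587 to 3696 for A197-270 against vector without IFN-gamma (3522 with all), 3695 to 4981 with IFN-gamma (4888 with all), 1411 to 2588 for IFN-gamma in vector cells (2405 with all), 575 to 1092 for IFN-gamma in A197-270 cells (1010 with all) and 103 to 229 for the interaction (126 with all). The lowest values came without replicate 9 in vector cells (1411) and without replicate 4 in A197-270 cells (575). DESeq2 called 283 genes for the interaction, 221 higher and 62 lower. The cause was not tested. Equal library totals moved the split of calls to 1161 higher and 2736 lower without IFN-gamma (1756 and 1766 before), to 1512 and 4169 with IFN-gamma (2616 and 2272 before) and to 1526 and 830 for IFN-gamma in vector cells (1029 and 1376 before), where the median log2 over all genes was -0.05, -0.09 and 0.03 in that order. Of 2323 values for named genes under an alternative, 68 lost a call and 6 gained one with 1 library left out, and 16 lost and 3 gained one under the other alternatives. Signs changed for CCL5 with IFN-gamma against none in vector cells (log2 -0.0422 to 0.0614 with 1 library left out, below 0 without replicate 3 or 9), which was not called. The lambda genes are limited by depth: in A197-270 cells they rest on 0 to 22 reads per group.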
